A study of Homo sapiens with 6 samples.

Results

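The genes described here are the translation initiation and elongation factors of BT20 cells, an established human breast cancer line of the triple negative, basal-like kind. They were chosen by name, as the gene symbols of the deposited count table that begin with EIF and a digit from 1 to 6 or with EEF and 1 or 2. Kinases of eIF2 (EIF2AK symbols, 4 rows), antisense genes (3 rows) and 136 pseudogene symbols, which end in P and digits, were left out. The same ending also left out 3 genes of 4E-binding proteins, EIF4EBP1, EIF4EBP2 and EIF4EBP3, which are described separately below. This gave 60 genes among the 56478 gene rows of the table, and 51 of them had at least 10 counts in at least 3 of the 6 libraries and were tested. That threshold used the counts of both arms alike, and 0 of the 51 passed through the libraries of only 1 arm.

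RNA was sequenced from cells carrying a short hairpin against cytokeratin 5, encoded by KRT5 (pLK0-shCK5-425222, here shCK5-22, n = 3), and from cells carrying a control hairpin (pLK0-shControl, here shControl, n = 3). Each arm is 1 hairpin, so effects of the hairpin sequence itself and of the lower KRT5 cannot be told apart. All cells were grown in DMEM/F12 1:1 with 10% fetal bovine serum and had no further treatment. The comparison asks which transcripts differ when KRT5 is knocked down.

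Translation begins when eIF2 brings the initiator tRNA to the small ribosomal subunit, eIF3 organises the other factors on that subunit, and the eIF4 factors bind the capped end of the mRNA and unwind it. The scanning factors eIF1, eIF1A and eIF5 govern the choice of start codon, after which eEF1A delivers aminoacyl-tRNAs and eEF2 moves the ribosome along the mRNA. Control acts mainly through phosphorylation of eIF2, which blocks its recharging by eIF2B, and through mTORC1, which frees the cap-binding protein eIF4E and favours mRNAs that start with a run of pyrimidines. RNA counts do not measure phosphorylation or protein.

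Libraries held 64855513, 61078311 and 53121206 counts in shCK5-22 replicates 1, 2 and 3 and 47703937, 65541734 and 62688434 in shControl replicates 1, 2 and 3. Values below are CPM, counts scaled to library size with TMM factors, and a fold change is shCK5-22 over shControl. KRT5 averaged 22.6 ± 1.52 CPM in shCK5-22 cells and 241 ± 8.55 CPM in shControl cells (SD, n = 3 each; log2 fold change -3.41, adjusted p = 5.34e-21). The shCK5-22 libraries were less alike than the shControl libraries: the chi-square statistic per degree of freedom was 33.7 and 19.8 between replicate 1 and replicates 2 and 3, and 5.08 between replicates 2 and 3, while the shControl pairs lay between 3.47 and 4.88. In shCK5-22 replicate 1, 34 of the 51 tested factors were the lowest of the 3 shCK5-22 libraries, against 6 in replicate 2 and 11 in replicate 3. Calls of the tested factors that changed without that library are named where they occur. Log2 fold changes of uncalled factors also shifted without it, and not every shift is named. EIF2S2, for example, went from 0.090 to 0.26 and EEF1AKMT1 from 0.094 to 0.020. All 5 epithelial markers were expressed, with KRT8 at 3957 ± 127 CPM in shCK5-22 cells and 3815 ± 83.9 CPM in shControl cells (SD, n = 3 each), and 2 of the 5 fell, CDH1 (log2 fold change -0.37) and KRT19 (-0.63). KRT8 and KRT18 did not pass, but did when shCK5-22 replicate 1 was left out (adjusted p = 0.044 and 0.00758 in edgeR's test). The progesterone receptor gene PGR had at most 4 counts in any library, and both other receptor genes fell, ESR1 (log2 fold change -0.33) and ERBB2 (-0.52). Among markers of other cell types, CD3E, PDGFRA and DCN had at most 2 counts in any library. The 5 basal-like markers, KRT5 among them, were all lower. The summed level of the 3 tested leukocyte markers was 2.84 to 3.36 CPM in shCK5-22 libraries and 1.65 to 2.39 CPM in shControl libraries, with 1 of the 3 higher in shCK5-22 cells (ITGAM, log2 fold change 1.27). For the 3 tested fibroblast markers it was 27.4 to 29.3 CPM in shCK5-22 libraries and 31.5 to 33.0 CPM in shControl libraries, where COL1A1 made up most of the sum and fell (log2 fold change -0.25). The other 2 tested fibroblast markers rose at low levels, PDGFRB at 1.08 ± 0.270 CPM in shCK5-22 cells and 0.0518 ± 0.0471 CPM in shControl cells and LUM at 0.373 ± 0.0957 CPM in shCK5-22 cells and 0.101 ± 0.0510 CPM in shControl cells (SD, n = 3 each). For the 5 tested endothelial markers the sum was 19.1 to 32.0 CPM in shCK5-22 libraries and 23.8 to 31.9 CPM in shControl libraries, with 1 of 5 lower. The part of such cells in the results below was not tested.

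Of the 51 tested factors, 23 rose and 3 fell in shCK5-22 cells, at an adjusted p under 0.05 in edgeR's quasi-likelihood test over all 18116 genes tested. Over all those genes, 17.3% were called higher and 16.6% lower (33.9% in either direction), against 45.1% and 5.88% of the factors. Among genes with a mean of at least 5 CPM, 24.7% were called higher and 22.2% lower, and all 26 called factors are among the 48 factors above that level. The median log2 fold change was 0.092 over the factors and -0.0055 over all genes tested, and 39 of the 51 factors had a positive value. The factors were picked out with results of these data known, so these counts describe them and carry no test of the group. In bulk RNA, a different make-up of the culture and a different amount of RNA per cell cannot be told apart.

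The changes were small. The 23 factors that rose had log2 fold changes between 0.092 and 0.31, with a median of 0.17, and 0 of the 26 called factors reached 2-fold, against 640 of the 6147 genes called in all. Most of those 640 were genes of low level. Among genes with a mean of at least 5 CPM, where all 26 lie, 2588 were called higher and 2319 lower, and 133 of the called genes reached 2-fold. In 29 of the 51 factors the libraries of the 2 arms did not overlap (56.9%), against 44.9% of all genes tested. Much of that gap goes with level. Among genes with a mean of at least 5 CPM the arms did not overlap in 5953 of 10459. Of the 48 factors above that level, 29 did not overlap. Without shCK5-22 replicate 1, 27 factors were called higher and 2 lower, with 17.4% and 17.3% of all genes called, and the median was 0.11.

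**Figure D1:**
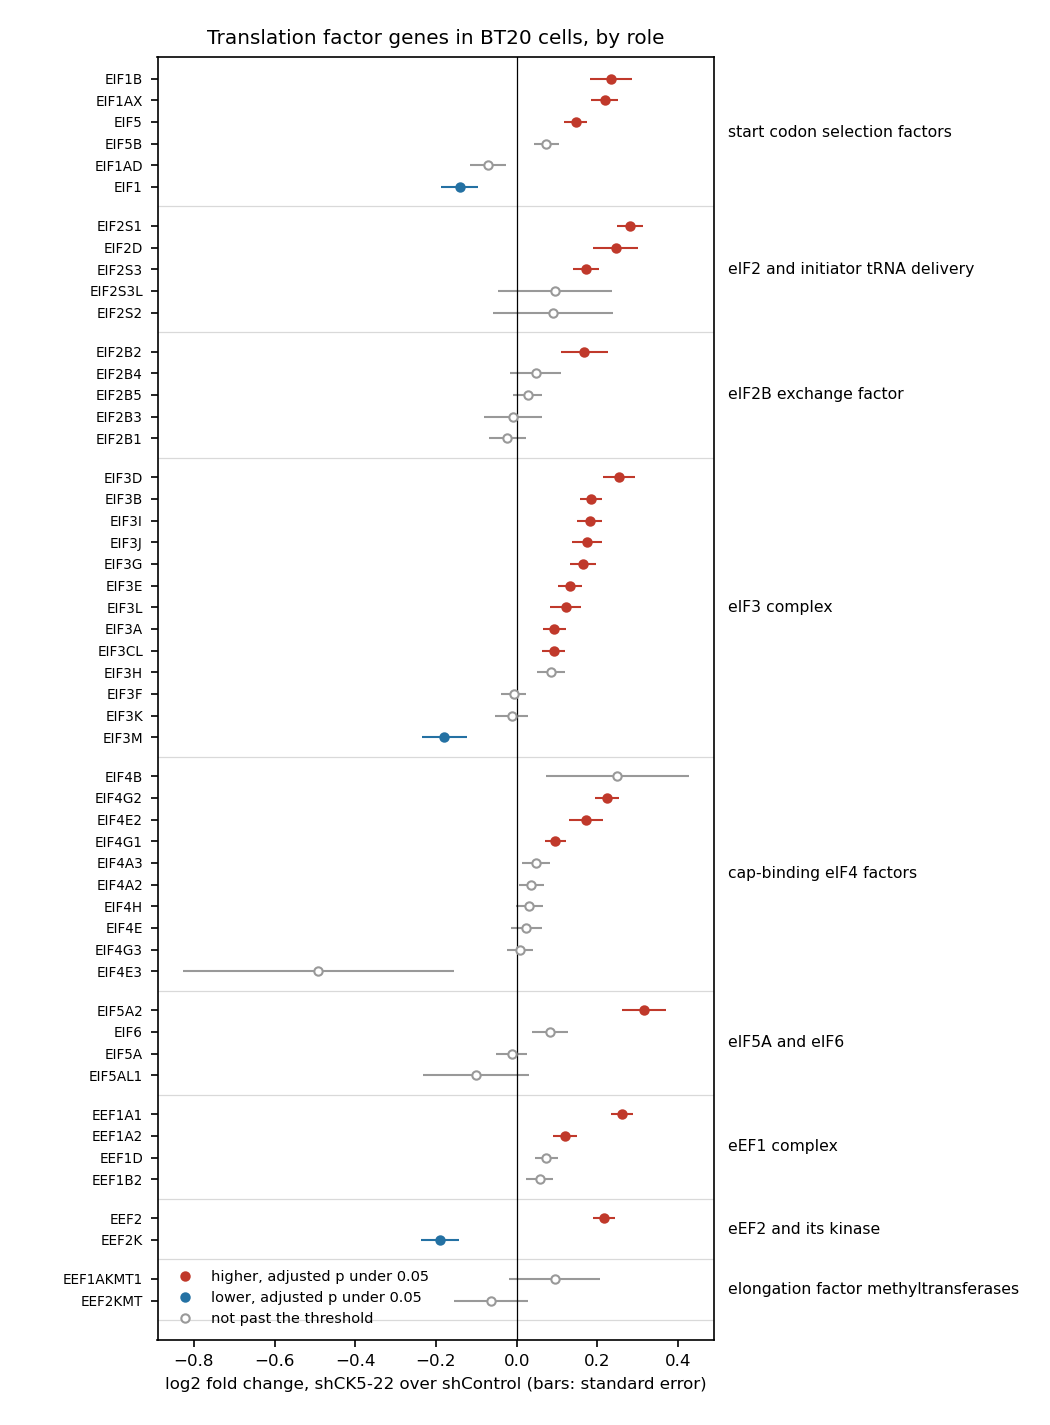
Log2 fold change of shCK5-22 over shControl for each of the 51 tested translation factors, grouped by role, with bars of 1 standard error (3 libraries per arm). Filled red points are the 23 factors called higher and filled blue points the 3 called lower (EIF1, EIF3M and EEF2K), while open points did not pass the threshold.

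**Figure D2:**
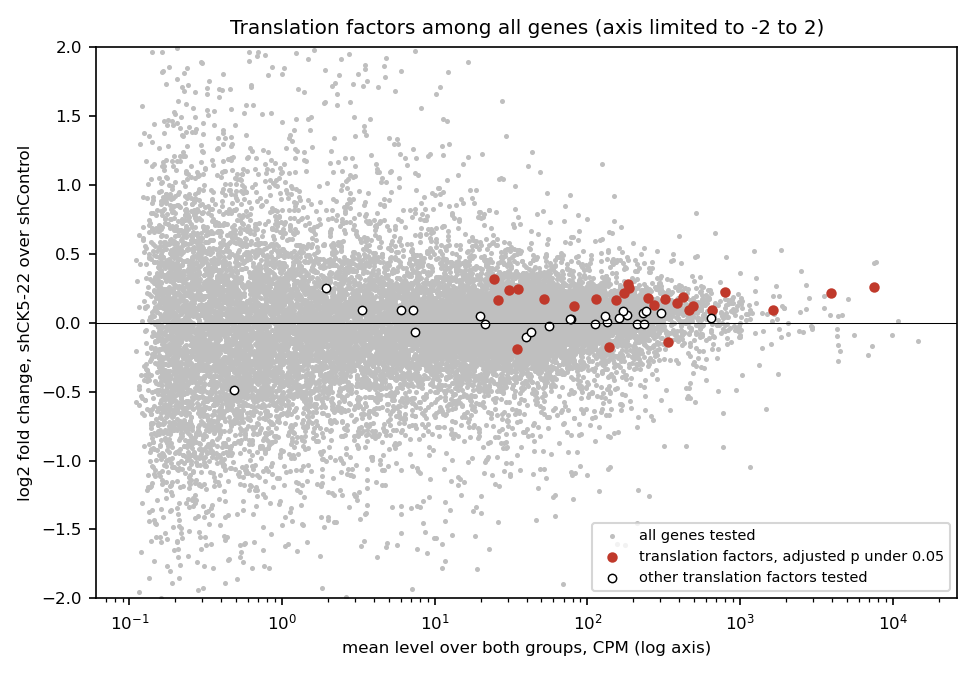
Log2 fold change of shCK5-22 over shControl against the mean level over both arms in CPM (log axis) for all 18116 genes tested in grey, with called factors in red and the other factors as open circles. The factors lie within a narrow band around 0, between -0.49 and 0.31, and reach the top of the range of levels with EEF1A1 and EEF2.

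Many mRNAs of the translation machinery begin with a terminal oligopyrimidine (TOP) tract, a C at the first transcribed base followed by pyrimidines, through which mTORC1 and the RNA-binding protein LARP1 control their translation and stability. The annotated starts of the factors were therefore read from RefSeq on GRCh38.p14, where 48 of the 60 had an entry, and RefSeq and GENCODE starts differ for some genes. Those with no entry were EEF1A2, EEF1AKMT1, EEF1D, EEF2KMT, EIF2S2, EIF2S3L, EIF3A, EIF3CL, EIF3E, EIF3G, EIF3H and EIF3L. A start was called TOP-like when its first base was C and at least 4 further bases in a row were C or T, read on the gene's own strand. This held for 11 of the 48 factors (22.9%), for 43 of 63 cytosolic ribosomal protein genes (68.3%) and for 4.04% of all 27305 entries. Each sequence below runs from 10 bases before the annotated start to 20 bases from it, written 5′ to 3′, with the pyrimidine run in capitals. The 4 factors shown first combine a TOP-like start with a called rise and include the most abundant mRNAs of the set.
EEF1A1, chr6:73521013-73521042, minus strand: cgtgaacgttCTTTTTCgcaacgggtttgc
EEF2, chr19:3985444-3985473, minus strand: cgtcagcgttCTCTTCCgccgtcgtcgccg
EIF3D, chr22:36529147-36529176, minus strand: cgcatgtttcCTCTTTTCCTggtttctcaa
EIF2S3, chrX:24054946-24054975, plus strand: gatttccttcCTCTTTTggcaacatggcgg
A further 3 sequences show a TOP-like start in EIF3M, the eIF3 subunit that fell, and in 2 eIF3 subunits that did not pass the threshold.
EIF3M, chr11:32583821-32583850, plus strand: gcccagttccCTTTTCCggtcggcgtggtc
EIF3F, chr11:7987327-7987356, plus strand: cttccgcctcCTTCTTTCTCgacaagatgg
EIF3K, chr19:38619178-38619207, plus strand: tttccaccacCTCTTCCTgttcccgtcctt
The last 3 have no such start, with no capitals, and belong to the factors with the largest rises outside the TOP-like set and to the kinase that fell.
EIF5A2, chr3:170908618-170908647, minus strand: cccgtctcttggaactgccgcggccgccac
EIF2S1, chr14:67360318-67360347, plus strand: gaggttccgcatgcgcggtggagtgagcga
EEF2K, chr16:22206268-22206297, plus strand: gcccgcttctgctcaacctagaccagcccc

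Among the 10 tested factors with a TOP-like start, 5 rose (EEF1A1, EEF2, EIF3D, EIF2D and EIF2S3) and 1 fell (EIF3M), with a median log2 fold change of 0.19 and a range of -0.18 to 0.26. Of the 29 with another start, 12 rose and 2 fell, with a median of 0.057 and a range of -0.49 to 0.31. Over all tested genes with an entry, 22.7% of those with a TOP-like start and 21.1% of the others were called higher. The other 4 with a TOP-like start, EIF3F, EIF3K, EIF4A2 and EIF4B, had log2 fold changes of -0.0069, -0.012, 0.036 and 0.25 and did not pass. Among ribosomal protein genes, 7 of 39 with a TOP-like start rose, with a median of 0.069, and 3 of 16 with another start rose, with a median of 0.076, shares of 17.9% and 18.8% that lie below those of all genes. A match is a description of the annotated start, not of the start used in these cells, and the difference between the kinds of start was not tested.

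**Figure D3:**
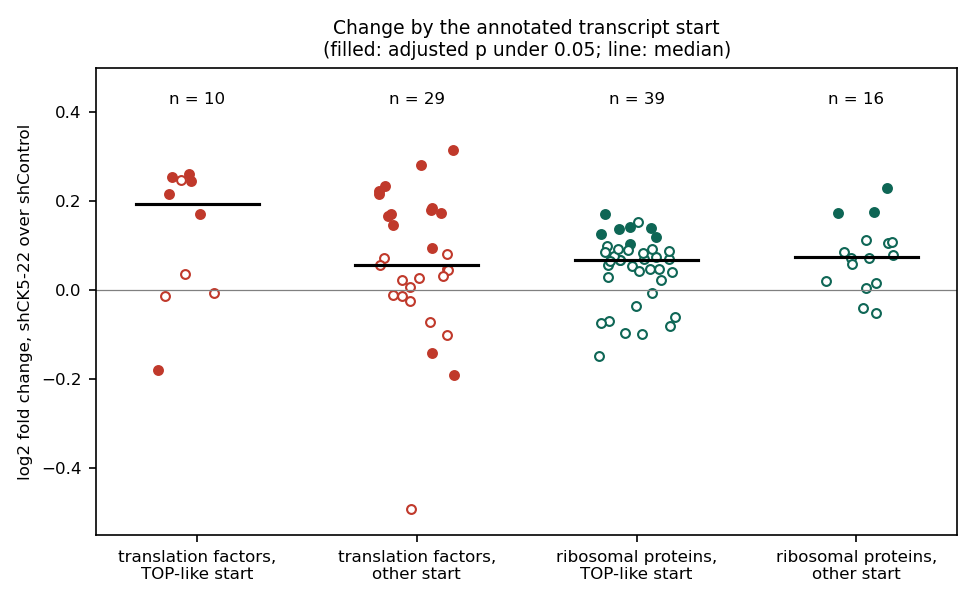
Log2 fold change of shCK5-22 over shControl for tested translation factors (red) and cytosolic ribosomal protein genes (green) with a TOP-like or another annotated start; filled points have an adjusted p under 0.05 and lines are medians. The medians are 0.19 and 0.057 for the factors and 0.069 and 0.076 for the ribosomal proteins, and the points of all 4 classes overlap. Calls among the ribosomal protein genes depended on shCK5-22 replicate 1.

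The elongation factors hold the most abundant mRNAs of the set. EEF1A1 (chr6:73515750-73523797, minus strand, GENCODE release 29 on GRCh38, as for all gene positions below) encodes the common form of eEF1A, which carries aminoacyl-tRNAs to the ribosome. It had 8055, 8468 and 8164 CPM in shCK5-22 replicates 1, 2 and 3, against 6947, 6859.8 and 6795 CPM in shControl replicates 1, 2 and 3. Every shCK5-22 library was above every shControl library, and EEF1A1 rose 1.20-fold (log2 fold change 0.26, SE 0.0270, adjusted p = 1.20e-07). EEF1A2 (chr20:63488012-63499322, minus strand) encodes a closely related form that is the main one in muscle and neurons and is also made in some breast tumours. EEF1A2 had 521, 501 and 509.5 CPM in shCK5-22 replicates 1, 2 and 3, against 479.9, 454 and 476 CPM in shControl replicates 1, 2 and 3, again without overlap (log2 fold change 0.12, SE 0.0294, adjusted p = 0.00279). As a share of the counts of both genes, not scaled by length, EEF1A2 made up 5.85% ± 0.244 in shCK5-22 cells and 6.40% ± 0.178 in shControl cells (SD, n = 3 each), a difference that was not tested.

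Of the eEF1A exchange factor subunits, EEF1B2 averaged 186 ± 7.64 CPM in shCK5-22 cells and 179 ± 3.55 CPM in shControl cells (SD, n = 3 each; log2 fold change 0.057, adjusted p = 0.203), and 45.0% of its 50-base windows occur in other genes. EEF1D averaged 311 ± 6.06 CPM in shCK5-22 cells and 296 ± 5.49 CPM in shControl cells (SD, n = 3 each; log2 fold change 0.073, adjusted p = 0.0550), and other genes overlap 34.0% of its exon length. Neither passed. Both passed when shCK5-22 replicate 1 was left out (0.0448 and 0.0183), and EEF1D also with upper quartile scaling (0.0281) and limma-voom (0.0478), and without that library all 4 tested genes of the eEF1 group were called higher. In that fit 17.4% of all genes tested were called higher. The methyltransferase genes of the elongation factors, EEF1AKMT1 and EEF2KMT, did not pass and had log2 fold changes of 0.094 and -0.064.

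EEF2 (chr19:3976056-3985469, minus strand) encodes the GTPase that moves the ribosome by a codon, and EEF2K (chr16:22206282-22288732, plus strand) the kinase that phosphorylates and inhibits it. EEF2 had 4167, 4375 and 4231 CPM in shCK5-22 replicates 1, 2 and 3, against 3602, 3697 and 3696 CPM in shControl replicates 1, 2 and 3. The lowest shCK5-22 library was above the highest shControl library, and EEF2 rose 1.16-fold (log2 fold change 0.22, SE 0.0274, adjusted p = 2.12e-06). EEF2K had 32.7, 32.9 and 31.2 CPM in shCK5-22 replicates 1, 2 and 3, against 37.5, 36.8 and 36.4 CPM in shControl replicates 1, 2 and 3. Here the order was the reverse, with all shCK5-22 libraries below all shControl libraries, and EEF2K fell by 0.19 on the log2 scale (SE 0.0476, adjusted p = 0.00327). The substrate and its inhibitory kinase thus changed in opposite directions at the RNA level.

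All 60 factors took 2.29%, 2.34% and 2.30% of the counts in shCK5-22 replicates 1, 2 and 3, against 2.07%, 2.07% and 2.07% in shControl replicates 1, 2 and 3. EEF1A1 alone took 0.812%, 0.830% and 0.814% in shCK5-22 replicates, against 0.701%, 0.684% and 0.685% in shControl replicates. EEF2 took 0.423% ± 0.00475 in shCK5-22 cells and 0.368% ± 0.00456 in shControl cells (SD, n = 3 each). Without EEF1A1 and EEF2 the other 58 factors took between 1.06% and 1.08% in shCK5-22 libraries and between 1.00% and 1.02% in shControl libraries. The larger part of the extra share thus belonged to this pair of elongation factors.

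**Figure D4:**
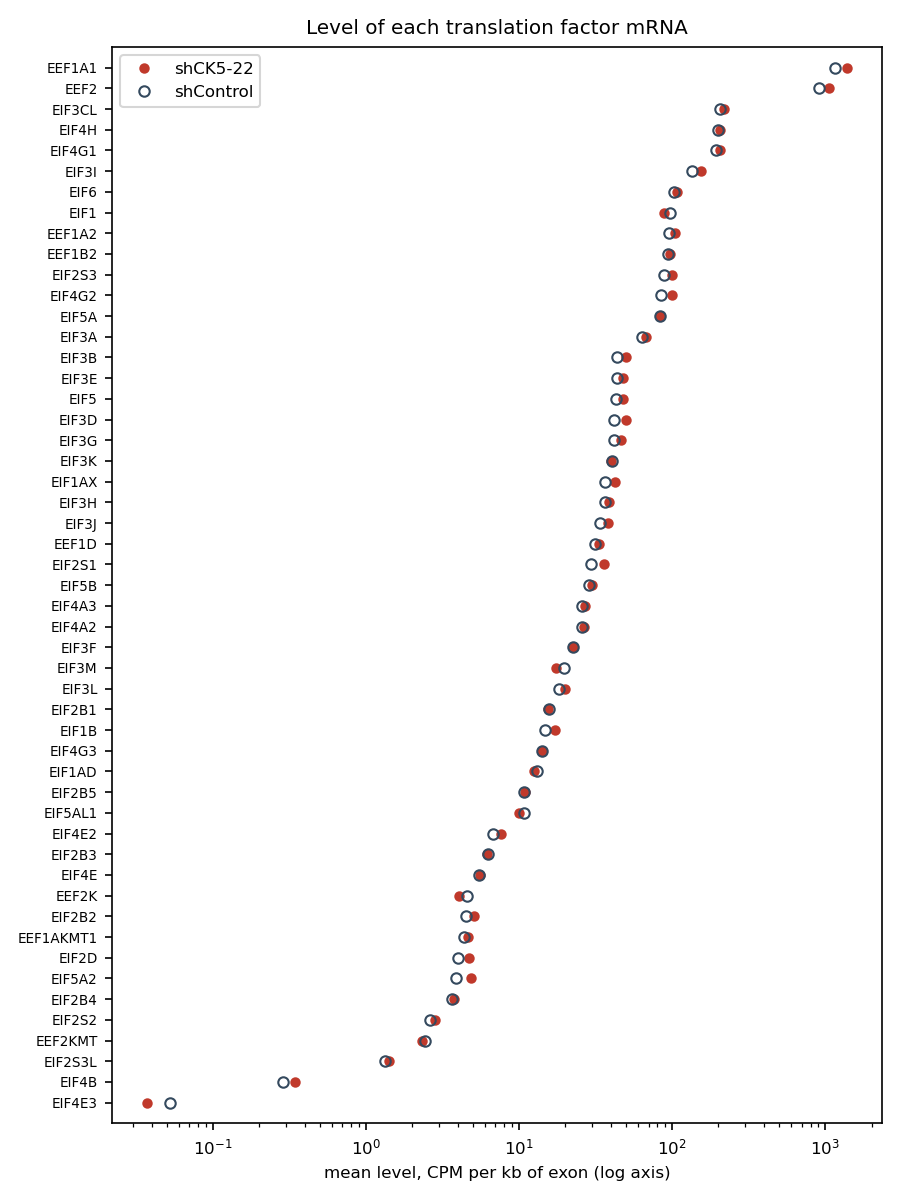
Mean level of each tested factor in CPM per kb of annotated exon (log axis) in shCK5-22 cells (filled) and shControl cells (open), 3 libraries each. EEF1A1 and EEF2 stand highest at 1383 and 1057 CPM per kb in shCK5-22 cells and 1155 and 910.2 CPM per kb in shControl cells, and EIF4E3 lowest at 0.037 and 0.053 CPM per kb.

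Levels of different genes were compared per kb of annotated exon. EEF1A1 and EEF2 were followed by EIF3CL, with 218 CPM per kb in shCK5-22 cells and 204 CPM per kb in shControl cells, and by EIF4G1, with 206 CPM per kb in shCK5-22 cells and 193 CPM per kb in shControl cells. The place of EIF3CL is uncertain, because its counts cannot be told from those of its near-identical copy EIF3C. They were divided by the 3091 exon bases of EIF3CL, while EIF3C has 6982. EIF4H, whose product stimulates the eIF4A helicase, had 204 CPM per kb in shCK5-22 cells and 199 CPM per kb in shControl cells, so the order of EIF4G1 and EIF4H differs between the arms. The low end was EIF4E3 and EIF4B, at 0.037 and 0.34 CPM per kb in shCK5-22 cells and 0.053 and 0.29 in shControl cells. EIF4B rested on 70 to 141 counts per library although the sum over its 9 pseudogene rows was 1226 to 1630 counts, and 30.6% of the 50-base windows of its mRNA also occur in other annotated genes. The labels do not say how reads with several matches were counted, and the EIF4B level is uncertain.

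The eIF2 complex delivers the initiator tRNA, and its alpha subunit, encoded by EIF2S1 (chr14:67359997-67386516, plus strand), carries the serine that stress kinases phosphorylate. EIF2S1 had 195, 212 and 203 CPM in shCK5-22 replicates 1, 2 and 3, against 166, 172 and 164 CPM in shControl replicates 1, 2 and 3. All shCK5-22 libraries were above all shControl libraries, a 1.21-fold rise (log2 fold change 0.28, SE 0.0331, adjusted p = 7.69e-07). EIF2S3 (chrX:24054716-24077971, plus strand) encodes the gamma subunit, which binds GTP and the tRNA. It had 338, 355 and 340.1 CPM in shCK5-22 replicates 1, 2 and 3, against 295, 316 and 306 CPM in shControl replicates 1, 2 and 3 and rose without overlap (log2 fold change 0.17, SE 0.0315, adjusted p = 0.000187). In EIF2S3, 23.2% of 50-base windows occur in other genes.

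EIF2D (chr1:206571292-206612463, minus strand) encodes a factor that can place tRNA on the ribosome without eIF2 and takes part in recycling. It had 35.4, 40.4 and 38.3 CPM in shCK5-22 replicates 1, 2 and 3, against 31.7, 33.9 and 30.6 CPM in shControl replicates 1, 2 and 3. The arms did not overlap, and EIF2D rose (log2 fold change 0.25, SE 0.0555, adjusted p = 0.00147). EIF2S2, for the beta subunit, rested on 367 to 483 counts per library and shares 22.6% of its windows with other genes (log2 fold change 0.090, adjusted p = 0.700), and the copy EIF2S3L did not pass either (log2 fold change 0.095, adjusted p = 0.665).

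The exchange factor eIF2B recharges eIF2 with GTP and has 5 subunits. EIF2B2 (chr14:75002911-75012366, plus strand), for the beta subunit, was the only one called. It had 28.7, 27.9 and 25.8 CPM in shCK5-22 replicates 1, 2 and 3, against 25.5, 24.8 and 23.2 CPM in shControl replicates 1, 2 and 3, with shCK5-22 above shControl in every library (log2 fold change 0.17, SE 0.0578, adjusted p = 0.0284). The call was lost with library-size scaling (adjusted p = 0.0551) and without shCK5-22 replicate 1 (0.0806), shCK5-22 replicate 2 (0.0649) or shControl replicate 3 (0.165). Other genes overlap 23.6% of its exon length. EIF2B1, EIF2B3, EIF2B4 and EIF2B5 had log2 fold changes of -0.023, -0.010, 0.047 and 0.027, with overlapping arms.

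Factors that read the start codon moved in both directions. EIF1AX (chrX:20124518-20141844, minus strand) encodes eIF1A, which occupies the aminoacyl site during scanning. EIF1AX had 193, 189.6 and 182 CPM in shCK5-22 replicates 1, 2 and 3, against 159, 168 and 159 CPM in shControl replicates 1, 2 and 3. The arms did not overlap and EIF1AX rose (log2 fold change 0.22, SE 0.0327, adjusted p = 1.85e-05). EIF5 (chr14:103333544-103345025, plus strand) encodes the factor that makes eIF2 hydrolyse its GTP, and had 396, 416 and 402 CPM in shCK5-22 replicates 1, 2 and 3, against 361, 375 and 361 CPM in shControl replicates 1, 2 and 3. It rose in every shCK5-22 library relative to every shControl library (log2 fold change 0.15, SE 0.0292, adjusted p = 0.000449).

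EIF1 (chr17:41688885-41692668, plus strand) and its close relative EIF1B (chr3:40309684-40312424, plus strand) encode versions of the factor that holds back initiation at poor start codons. EIF1B had 32.6, 32.2 and 34.3 CPM in shCK5-22 replicates 1, 2 and 3, against 29.1, 26.8 and 28.5 CPM in shControl replicates 1, 2 and 3 and rose (log2 fold change 0.23, SE 0.0522, adjusted p = 0.00130). EIF1, the more abundant of the pair per kb of exon, had 293, 337 and 327 CPM in shCK5-22 replicates 1, 2 and 3, against 345, 365 and 345 CPM in shControl replicates 1, 2 and 3. Its shCK5-22 libraries were all below its shControl libraries, and EIF1 fell by 0.14 on the log2 scale (SE 0.0460, adjusted p = 0.0329). Without shCK5-22 replicate 1 its log2 fold change was -0.083 (adjusted p = 0.0369). The call was lost with upper quartile scaling (0.0524) and without shControl replicate 1 (0.0541), shControl replicate 2 (0.148) or shControl replicate 3 (0.0506). EIF5B, for the GTPase that joins the subunits, and EIF1AD did not pass (log2 fold change 0.073, adjusted p = 0.0676, and log2 fold change -0.071, adjusted p = 0.252), although neither had overlapping arms. EIF5B passed with upper quartile scaling (0.0362) and without shControl replicate 2 (0.0268).

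The eIF3 complex, the largest initiation factor, had rises in most of its genes. Of its 13 tested genes 9 rose, 1 fell and 3 did not pass, with a median log2 fold change of 0.12, beside 17.3% of all genes tested called higher and 16.6% lower. EIF3D (chr22:36510850-36529436, minus strand) encodes a subunit that can bind the cap of some mRNAs. EIF3D had 193, 214 and 201 CPM in shCK5-22 replicates 1, 2 and 3, against 163, 178 and 168 CPM in shControl replicates 1, 2 and 3. All shCK5-22 libraries were above all shControl libraries (log2 fold change 0.25, SE 0.0391, adjusted p = 5.41e-05).

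EIF3B (chr7:2354086-2380745, plus strand) encodes a scaffold subunit and had 443, 455 and 449 CPM in shCK5-22 replicates 1, 2 and 3, against 394, 398 and 394 CPM in shControl replicates 1, 2 and 3. It rose without overlap (log2 fold change 0.18, SE 0.0270, adjusted p = 1.39e-05). EIF3I (chr1:32221928-32231604, plus strand), which encodes its binding partner, had 255, 275 and 265 CPM in shCK5-22 replicates 1, 2 and 3, against 232, 236 and 233 CPM in shControl replicates 1, 2 and 3. It too rose without overlap (log2 fold change 0.18, SE 0.0312, adjusted p = 9.62e-05). EIF3J, EIF3G, EIF3E, EIF3L, EIF3A and EIF3CL rose by log2 fold changes of 0.17, 0.16, 0.13, 0.12, 0.093 and 0.092.

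The last 3 of these calls were not stable. EIF3A lost the call without shCK5-22 replicate 2 (adjusted p = 0.0581) or shControl replicate 1 (0.0986). EIF3L lost it without shControl replicate 1 (0.0542) or shControl replicate 3 (0.156), and other genes overlap 51.8% of its exon length. EIF3CL lost it without shCK5-22 replicate 2 (0.061), shCK5-22 replicate 3 (0.0535), shControl replicate 1 (0.0978) or shControl replicate 3 (0.0538). EIF3CL is a near-identical copy of EIF3C, with 98.7% of its 50-base windows found in other genes. EIF3C itself was listed at 0 in all 6 libraries while EIF3CL had 29629 to 42907 counts, so these counts cannot be assigned to either copy.

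EIF3M (chr11:32583798-32606262, plus strand) encodes a subunit of the eIF3 core and was the exception. It had 128, 138 and 122 CPM in shCK5-22 replicates 1, 2 and 3, against 140.1, 158 and 142 CPM in shControl replicates 1, 2 and 3. The shCK5-22 libraries lay below the shControl libraries, with shCK5-22 replicate 3 the lowest, and EIF3M fell by 0.18 on the log2 scale (SE 0.0552, adjusted p = 0.0290). The call was lost without shCK5-22 replicate 1 (0.134), shCK5-22 replicate 3 (0.0689) or shControl replicate 2 (0.0597), where the log2 fold change was -0.12. EIF3F, EIF3H and EIF3K did not pass, with log2 fold changes of -0.0069, 0.085 and -0.012. EIF3H passed without shCK5-22 replicate 1 (0.00834) or shControl replicate 2 (0.0126), and with upper quartile scaling (0.0367) or no filter (0.0468).

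The genes with eIF4 names include those that bring the capped mRNA to the ribosome, though not every one has that role. Of the 10 tested, 3 rose and 0 fell, also 0 at an unadjusted p under 0.05 in edgeR's test and 0 in DESeq2 and limma-voom. Over all genes tested 17.3% were called higher and 16.6% lower. Among genes with a mean of at least 5 CPM the shares were 24.7% and 22.2%, and the 30% of eIF4 factors that rose is near the first of these. EIF4G2 (chr11:10797050-10809110, minus strand), also known as DAP5, encodes a scaffold that lacks the part of eIF4G that binds eIF4E. It had 837, 891 and 851 CPM in shCK5-22 replicates 1, 2 and 3, against 721, 754 and 733 CPM in shControl replicates 1, 2 and 3. Every shCK5-22 library was above every shControl library, a 1.17-fold rise (log2 fold change 0.22, SE 0.0297, adjusted p = 3.67e-06). EIF4G1 (chr3:184314495-184335358, plus strand), which encodes the main scaffold, had 1732, 1689 and 1689.8 CPM in shCK5-22 replicates 1, 2 and 3, against 1579.6, 1581 and 1622 CPM in shControl replicates 1, 2 and 3. EIF4G1 rose by less, 1.07-fold, and without overlap (log2 fold change 0.10, SE 0.0267, adjusted p = 0.00782).

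EIF4E2 (chr2:232550052-232583644, plus strand) encodes a cap-binding protein that takes part in repression of bound mRNAs. It had 53.2, 54.3 and 57.0 CPM in shCK5-22 replicates 1, 2 and 3, against 48.0, 48.6 and 49.4 CPM in shControl replicates 1, 2 and 3 and rose without overlap (log2 fold change 0.17, SE 0.0421, adjusted p = 0.00295), and other genes overlap 24.2% of its exon length. EIF4E, which encodes the cap-binding protein itself, averaged 77.9 ± 1.42 CPM in shCK5-22 cells and 76.7 ± 2.92 CPM in shControl cells (SD, n = 3 each; log2 fold change 0.024, adjusted p = 0.688). The helicase genes EIF4A2 and EIF4A3, with EIF4G3 and EIF4H, had log2 fold changes between 0.0079 and 0.047 and did not pass. EIF4H was called higher without shCK5-22 replicate 1 (adjusted p = 0.0417). EIF4B (log2 fold change 0.25, adjusted p = 0.314) and EIF4E3 (log2 fold change -0.49, adjusted p = 0.291) rested on few counts, and EIF4E3, with 16 to 38 counts per library, was the member nearest above the threshold for testing.

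The repressors that bind eIF4E when mTORC1 is inactive are coding genes, but their symbols end in P and a digit, so the naming rule leaves them out of all counts above. Their values are given beside the factors. EIF4EBP2 had 141, 139 and 144 CPM in shCK5-22 replicates 1, 2 and 3, against 114, 122 and 117 CPM in shControl replicates 1, 2 and 3 and rose without overlap (log2 fold change 0.26, SE 0.0331, adjusted p = 1.89e-06). EIF4EBP1 had 78.9, 82.0 and 75.6 CPM in shCK5-22 replicates 1, 2 and 3, against 87.0, 91.8 and 85.8 CPM in shControl replicates 1, 2 and 3 and fell without overlap (by 0.16 on the log2 scale, SE 0.0391, adjusted p = 0.00249). EIF4EBP3 was listed at 0 in all libraries.

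The factor with the largest called change was EIF5A2 (chr3:170888415-170908693, minus strand), which encodes another form of the hypusine-bearing factor eIF5A, a protein that helps ribosomes through slow peptide bonds and termination. EIF5A2 had 26.7, 27.8 and 26.9 CPM in shCK5-22 replicates 1, 2 and 3, against 20.9, 22.5 and 22.0 CPM in shControl replicates 1, 2 and 3. The arms did not overlap, a 1.24-fold rise (log2 fold change 0.31, SE 0.0548, adjusted p = 0.000105). EIF5A averaged 233 ± 13.6 CPM in shCK5-22 cells and 234 ± 7.66 CPM in shControl cells (SD, n = 3 each; log2 fold change -0.012, adjusted p = 0.846), and 31.7% of its windows occur in other genes. As a share of counts, not scaled by length, EIF5A2 made up 10.5% ± 0.437 of both genes in shCK5-22 cells and 8.51% ± 0.230 in shControl cells (SD, n = 3 each). The intronless copy EIF5AL1 (log2 fold change -0.10, adjusted p = 0.634) and EIF6 (log2 fold change 0.082, adjusted p = 0.186), which encodes a factor that keeps the ribosomal subunits apart, did not pass. EIF6 was called higher without shCK5-22 replicate 1 (adjusted p = 0.00529).

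**Figure D5:**
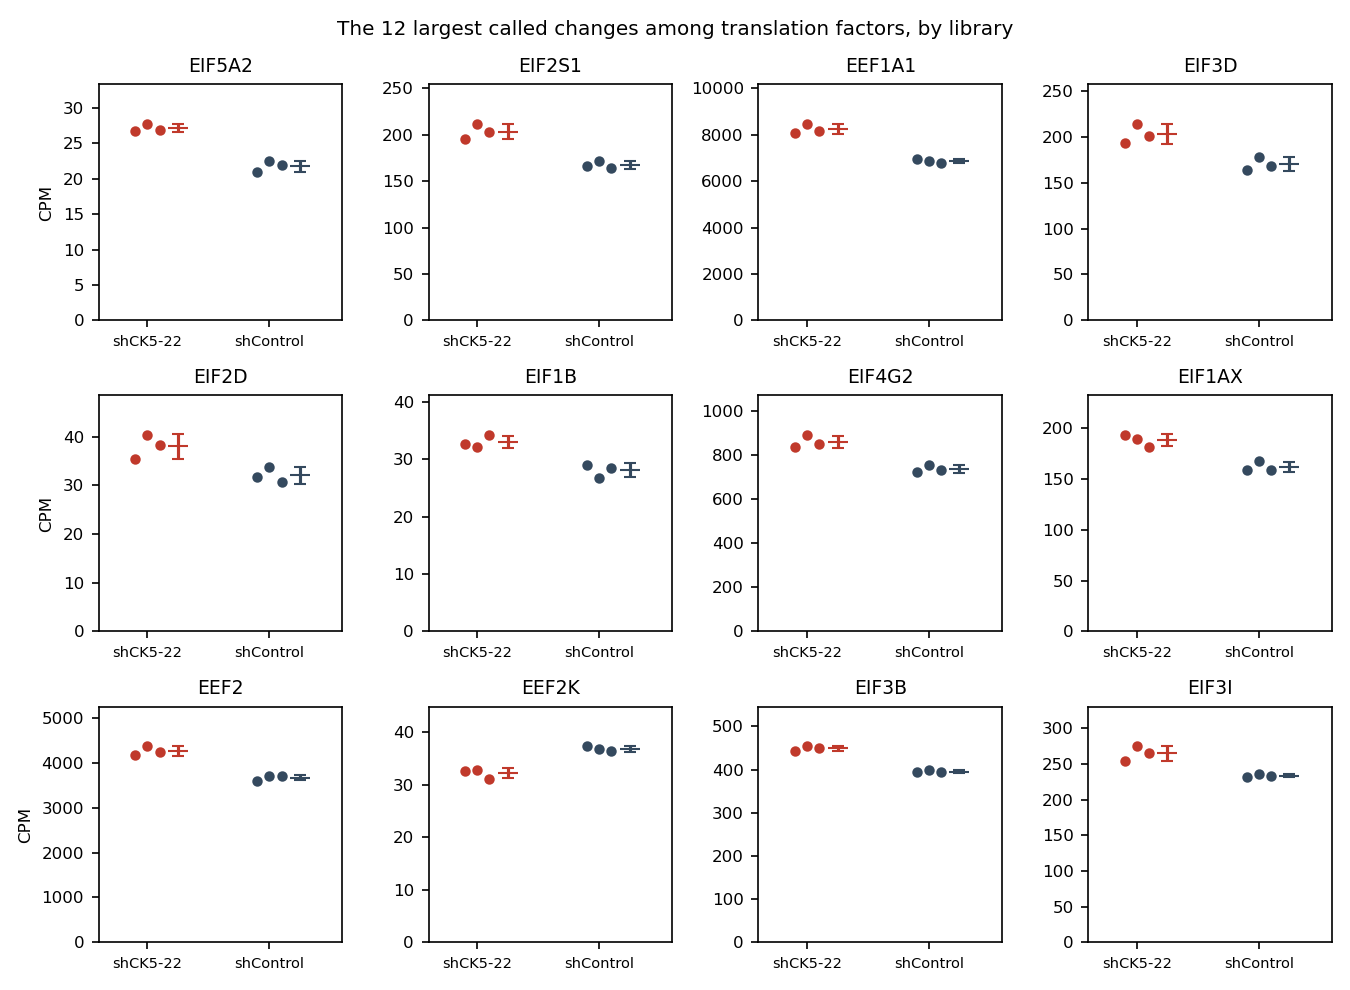
CPM in each library (points) with the mean and SD (bar) for the 12 factors with the largest called changes, shCK5-22 (red, n = 3) left of shControl (dark, n = 3), each axis starting at 0. In 11 of the 12 all shCK5-22 points lie above all shControl points, and in EEF2K they lie below, with changes between -0.19 and 0.31 on the log2 scale.

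The 9 factors that were not tested need separate mention. EEF1G, EEF1E1, EIF2A, EIF3C, EIF4A1 and EIF4ENIF1 were listed at 0 in all 6 libraries, although eEF1G and eIF4A1 are abundant in most cells. Another annotated gene, AP002990.1, covers 99.9% of the exon length of EEF1G, and other genes cover 48.6% of that of EIF4A1. Other genes cover less of EEF1E1 (18.7%), EIF4ENIF1 (6.94%), EIF2A (3.70%) and EIF3C (0%). Windows shared with other genes made up 98.7% in EEF1G, 100% in EIF4A1, 96.8% in EIF3C and 33.9% in EEF1E1. They made up 0% in EIF2A and EIF4ENIF1. The cause of these listings at 0 was not tested, and a listed 0 is not read as lack of expression. EIF4E1B had 0 to 2 counts per library, the readthrough gene EEF1E1-BLOC1S5 had 2 to 4, and EIF1AY was not tested.

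Reads shared with copies also touch EEF1A1, the factor with most pseudogenes. Of its 50-base windows 29.3% occur in other genes, and its 39 pseudogene rows held between 24.1% and 28.5% of the EEF1A1 count. These rows took 0.196%, 0.228% and 0.232% of counts in shCK5-22 replicates 1, 2 and 3, against 0.200%, 0.195% and 0.190% in shControl replicates 1, 2 and 3. In that share shCK5-22 replicate 1 lies within the shControl range, whereas the EEF1A1 share itself did not overlap between the arms.

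Other genes of the translation system were taken from lists by role, and each count below is to be read beside the 17.3% of all genes called higher and 16.6% lower (24.7% and 22.2% among genes with a mean of at least 5 CPM). Of the 71 cytosolic ribosomal protein genes tested among 79 listed, 12 rose and 0 fell, with a median log2 fold change of 0.072. Those 12 of 71 (16.9%) are close to the 17.3% of all genes called higher. In edgeR's test 2 were lower at an unadjusted p under 0.05, DESeq2 and limma-voom each called 1 lower, and edgeR called 3 lower with library-size scaling and 2 with no filter. The counts varied widely with the libraries and the filter: 48 rose without shCK5-22 replicate 1 and 24 with no filter, and 5 fell without shCK5-22 replicate 2. RPL6, a protein of the large subunit, averaged 821 ± 34.8 CPM in shCK5-22 cells and 699.9 ± 16.7 CPM in shControl cells (SD, n = 3 each; log2 fold change 0.23, SE 0.0315, adjusted p = 5.59e-06). RPL7, of the same subunit, averaged 527 ± 21.6 CPM in shCK5-22 cells and 465 ± 19.6 CPM in shControl cells (SD, n = 3 each; log2 fold change 0.18, SE 0.0343, adjusted p = 0.000338).

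Of the 18 tested genes of the eIF2 kinase and integrated stress response list, 7 rose (38.9%) and 4 fell (22.2%), and 4 rose without shCK5-22 replicate 3 or without shControl replicate 3. The share that fell is near the share over all genes. Over all genes, 2668 were called higher without shCK5-22 replicate 3 and 2523 without shControl replicate 3, against 3132 in the main fit. PPP1R15A, which encodes GADD34, the subunit that directs a phosphatase to eIF2, averaged 188 ± 2.56 CPM in shCK5-22 cells and 113 ± 3.12 CPM in shControl cells and rose (log2 fold change 0.74, SE 0.0316, adjusted p = 8.46e-14). EIF2AK2, which encodes the RNA-activated eIF2 kinase PKR, averaged 165 ± 8.35 CPM in shCK5-22 cells and 266 ± 4.76 CPM in shControl cells and fell (log2 fold change -0.68, SE 0.0340, adjusted p = 1.01e-12). The genes of the other eIF2 kinases, EIF2AK1, EIF2AK3 and EIF2AK4, had log2 fold changes of 0.064, -0.0028 and 0.034 and did not pass. ATF4, whose translation rises when eIF2 is phosphorylated, had a log2 fold change of 0.10 (adjusted p = 0.0190), a call lost without shCK5-22 replicate 2 (0.0847), shCK5-22 replicate 3 (0.0527) or shControl replicate 3 (0.104). EIF2AK1 passed with upper quartile scaling (0.0427).

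In the list of mTORC1 and cap-dependent control, 8 of 14 tested genes rose (57.1%) and 0 fell, with a median of 0.090, and 5 rose without shControl replicate 1 or without shControl replicate 3. MLST8, a subunit of mTORC1, averaged 56.6 ± 2.64 CPM in shCK5-22 cells and 45.6 ± 2.14 CPM in shControl cells (log2 fold change 0.31, SE 0.0467, adjusted p = 2.06e-05). MYC, a transcription factor that drives ribosome production, averaged 179.8 ± 6.01 CPM in shCK5-22 cells and 155 ± 3.05 CPM in shControl cells (log2 fold change 0.22, SE 0.0321, adjusted p = 1.57e-05). The other genes that rose were MKNK2, TSC2, PDCD4, MTOR, RHEB and LARP1 (log2 fold changes of 0.21, 0.19, 0.19, 0.10, 0.095 and 0.086). The list holds genes that promote and genes that restrain translation, so its count gives no direction of mTORC1 activity. Lower genes numbered 1 at an unadjusted p under 0.05 in edgeR's test, 0 in DESeq2 and limma-voom and 1 in edgeR's test with a filter of 1 CPM.

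Of 20 cytosolic aminoacyl-tRNA synthetase genes, which charge tRNAs with amino acids, 12 rose (60.0%) and 1 fell, with a median of 0.12. FARSB and QARS, both among the 12, lost the call with library-size scaling (0.0534 and 0.0549). They also lost it in each fit that left out a library other than shCK5-22 replicate 1. HARS, EPRS and SARS did not pass and are not among the 12. HARS and EPRS passed without shCK5-22 replicate 1 (0.0203 and 0.0494), and SARS with library-size scaling (0.0418) or a filter of 1 CPM (0.043). The direction of these calls is not given here. Of the 20 genes, 16 had a positive log2 fold change in the main fit. TARS, for threonine, averaged 1126 ± 41.6 CPM in shCK5-22 cells and 879 ± 20.1 CPM in shControl cells and rose (log2 fold change 0.36, SE 0.0303, adjusted p = 5.50e-09). WARS, for tryptophan and known to be induced by interferon, averaged 32.4 ± 3.33 CPM in shCK5-22 cells and 44.8 ± 1.22 CPM in shControl cells and fell (log2 fold change -0.47, SE 0.0608, adjusted p = 6.93e-06).

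Of 5 tested termination and recycling genes, 2 rose and 1 fell. ABCE1, whose product splits ribosomes after termination, averaged 16.4 ± 0.765 CPM in shCK5-22 cells and 24.7 ± 1.19 CPM in shControl cells and fell (log2 fold change -0.60, SE 0.0620, adjusted p = 1.28e-07). The release factor gene ETF1 averaged 237 ± 5.82 CPM in shCK5-22 cells and 208 ± 4.47 CPM in shControl cells and rose (log2 fold change 0.19, SE 0.0302, adjusted p = 3.53e-05). Among 16 other helpers of initiation and elongation, 5 rose (31.2%) and 1 fell. The gene that fell, named after its value was seen, was BZW2 (log2 fold change -0.13, adjusted p = 0.0362), and its call was lost in each fit that left out shCK5-22 replicate 1, where its log2 fold change was -0.077, or any shControl library. PABPC1, the main cytoplasmic poly(A)-binding protein, averaged 2993 ± 76.1 CPM in shCK5-22 cells and 2638 ± 45.3 CPM in shControl cells (log2 fold change 0.18, SE 0.0278, adjusted p = 2.27e-05). DOHH, which completes the hypusine of eIF5A, averaged 30.6 ± 2.93 CPM in shCK5-22 cells and 27.2 ± 0.816 CPM in shControl cells, with overlapping arms (log2 fold change 0.17, SE 0.0624, adjusted p = 0.0415). Its call was lost with library-size scaling (0.0671), a filter of 1 CPM (0.0547) and limma-voom (0.078), and in each fit that left out a library other than shCK5-22 replicate 1 (0.0678 to 0.231). Mitochondrial translation factors are separate from the cytosolic ones, and 4 of 9 rose, with MTRF1 (log2 fold change 0.34, SE 0.0884, adjusted p = 0.00452) and MTIF2 (log2 fold change 0.30, SE 0.0666, adjusted p = 0.00248) the largest changes. In edgeR's test 0 of these 9 fell, also at an unadjusted p under 0.05, and 0 fell in DESeq2 and limma-voom.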

How the data were processed

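The samples were DNase-treated total RNA, per the labels' protocols. The authors deposited 1 table of whole-number read counts per gene symbol for 6 libraries, 3 per arm. Per the submitters' processing notes, cutadapt, STAR, SAMtools and Cufflinks were used with GRCh38. The sources used here name no counting tool or gene annotation and do not say how strand or reads with several matches were treated. Of 56505 rows, 27 carried a calendar date in place of a symbol (0.167% to 0.175% of a library's counts) and were left out, and 0 columns were unused.

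Counts were fitted with edgeR 4.0.16 in R 4.3.3 (TMM, quasi-likelihood test with robust estimation, at least 10 counts in at least 3 libraries), two-sided, with Benjamini-Hochberg adjustment over all 18116 genes tested and a threshold of 0.05. Every adjusted p comes from that fit unless another setting is named. SDs are over the 3 libraries of an arm. Nothing in the labels makes the replicates separate cultures, and p-values then cover only library-to-library spread that may be technical. A floor of 3 counts is 0.0459 to 0.063 CPM and covers counting error only. Of counts from 1 to 19, 87.9% were even, against 58.4% of those of 1000 or more, as when both reads of a pair are counted.

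The factors, their roles and the gene lists were chosen with earlier results of these data known. In each role the 3 called factors of largest change were given library by library, and in each list the 2 largest called changes. Positions and exon lengths come from GENCODE release 29. Shared windows are 50-base stretches of a gene's longest coding transcript found in transcripts of other genes. The fit was tested on simulated data. Alternatives were other scalings and filters, DESeq2 1.42.0, limma-voom (limma 3.58.1), a threshold of 0.01, a replicate block, pseudogene counts added to the parent gene, and leaving out each library.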

Additional observations from a re-analysis of the deposited data

How the results depend on the processing

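Over 17 alternatives, 20 of the 26 called factors kept their direction and their call in each one. The other 6 (EIF1, EIF2B2, EIF3A, EIF3CL, EIF3L and EIF3M) lost the call in at least 1, and 0 of the 26 changed sign. The count of factors called lower was 3, against 1 with a threshold of 0.01, and lay between 1 and 3 when 1 library was left out, with 1 without shControl replicate 2. Factors called higher lay between 20 and 27 and the median log2 fold change between 0.072 and 0.11 when 1 library was left out, the genes called in all between 4930 and 6179, and the KRT5 log2 fold change between -3.46 and -3.36. With a threshold of 0.01, 19 of the 51 factors were called higher, as were 2 of 18 genes of the stress response list and 4 of 14 of the mTORC1 list. At that threshold 4384 of the 18116 genes tested were called in either direction. Ribosomal protein genes called higher numbered 24 with no filter and 27 with the replicate block, against 12. Low counts limit EIF4E3, EIF4B, EIF2S2 and EIF2S3L, and counting of both reads of a pair would make their counts less precise than they appear.

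The labels do not say whether replicate numbers pair the samples, and the correlations of deviations do not settle it. Between same-numbered libraries they were 0.0257, 0.0592 and 0.00819, and between the others they lay from -0.0575 to 0.0297. While shCK5-22 replicate 1 correlated best with shControl replicate 3, shCK5-22 replicates 2 and 3 correlated best with the shControl library of their own number. A fit with the replicate number as a block called 27 factors higher and 3 lower, and 6744 genes in all.

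Sign changes occurred in 12 factors that did not pass in the main setting, and the cause was not tested. The log2 fold change of EIF3F was 0.0032 with upper quartile scaling, and that of EIF4G3 was -0.0061 with library size only and -0.0010 with a filter of 1 CPM. When 1 library was left out, the log2 fold change lay between -0.017 and 0.024 for EIF4G3, -0.10 and 0.063 for EIF2B3, -0.18 and 0.034 for EIF5AL1, and -0.024 and 0.018 for EIF3F. It lay between -0.074 and 0.012 for EIF2B1, -0.042 and 0.036 for EIF5A, -0.054 and 0.028 for EIF3K, and -0.024 and 0.21 for EIF2S3L. It lay between -0.030 and 0.26 for EIF2S2, -0.0029 and 0.18 for EEF1AKMT1, -0.013 and 0.087 for EIF2B4, and -0.0094 and 0.043 for EIF4E.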
